A study of Danio rerio with 3 samples.

Results

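The transcripts of 5 circadian clock genes, per2, per3, nr1d1, clocka and tefa, were measured in zebrafish embryos after knockdown of slc2a10 and compared with embryos given a control morpholino. The genes were chosen by name, and every probe annotated to them was used, which gave 8 of 43603 probes and 5 of 15548 named genes. The knocked-down embryos were of the wild-type strain Ab, received 7.5 ng of slc2a10 MO each, and were kept at 28 degrees C until 48 hours post fertilization. They had been sorted for a phenotype called Class 1, and the RNA of 10 to 15 whole embryos went into each of 3 biological replicates. The control embryos were of the same strain and age and received 5 ng of a control MO. The RNA of their 3 replicates was pooled into 1 control sample, which was hybridised against each slc2a10 MO replicate on a two-colour array. On replicate 2 the dyes were swapped, with the slc2a10 MO sample labelled in Cy5 there and in Cy3 on the other two arrays. Dose and sorting therefore differed between the groups along with the target. Neither the light schedule of the embryos nor the time of day of their collection is given in the sources used here.

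Morpholinos (MO) are antisense oligomers that bind RNA and block its splicing or translation. Both oligos are shown because they are the treatments that every ratio compares. The capitals in the slc2a10 MO mark the complement of GTAAGT, a common start of an intron. The control MO does not hold this exact stretch but holds all of it except its first base (cttac). Only the exact stretch was searched for, so its absence does not set the oligos apart as to intron starts.
slc2a10 MO: caaataaagtccACTTACttggt
control MO: cctcttacctcagttacaatttata

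The circadian clock of vertebrates is a feedback loop of transcription. CLOCK and BMAL proteins activate the period (per) and cryptochrome (cry) genes, whose products then block CLOCK and BMAL. The nuclear receptors REV-ERB, encoded by nr1d1 and its relatives, and ROR act on the promoters of the bmal genes as repressors and activators. PAR bZip factors such as the product of tefa bind D-box elements and drive output genes. In zebrafish the clock runs in most tissues, which sense light directly, and light induces per2, cry1a, tefa and several DNA repair genes.

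All values are log ratios of the 2 samples on an array, as the authors deposited them, read here as log2. They carry no level of either sample, so neither the expression level of a gene nor the whole-embryo label could be checked. Over all probes replicate 2 correlated with replicates 1 and 3 at -0.65 and -0.69, and its sign was turned so that the 3 arrays run one way. Which way is not settled by the labels: the array titles name the Cy3 sample first but do not say which sample was divided by which. Values above 0 are therefore said to lie on the slc2a10 side, meaning the side of the slc2a10 transcript itself, and values below 0 on the other side. This side is higher in knocked-down embryos if the authors divided Cy3 by Cy5, and higher in the control pool if they divided Cy5 by Cy3. The single slc2a10 probe averaged 0.46 ± 0.04 over replicates 1 to 3 (SD, n = 3 arrays, limma adjusted p = 0.0008), with 0.50, 0.42 and 0.47 on the arrays. An MO that blocks splicing or translation need not change the amount of transcript, so this sign does not check the labels. Which of these the slc2a10 MO does was not tested. Of all named genes 19.3% were called, meaning that their mean differed from 0 at a limma adjusted p under 0.05.

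Of the 5 clock genes, 1 was called, the light-induced repressor gene per2, on the slc2a10 side and close to the threshold. The means of the other 4 lay between -0.09 and 0.05 and did not pass. The count of 1 in 5 is near the 19.3% of all named genes. The median of the 5 means was -0.06, against 0.007 over all named genes. At the level of single probes, adjusted over all 43603, 0 of 8 were called by limma, against 11.7% of all probes, and 2 of 8 had an unadjusted p under 0.05, against 23.5% of all probes.

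**Figure D1:**
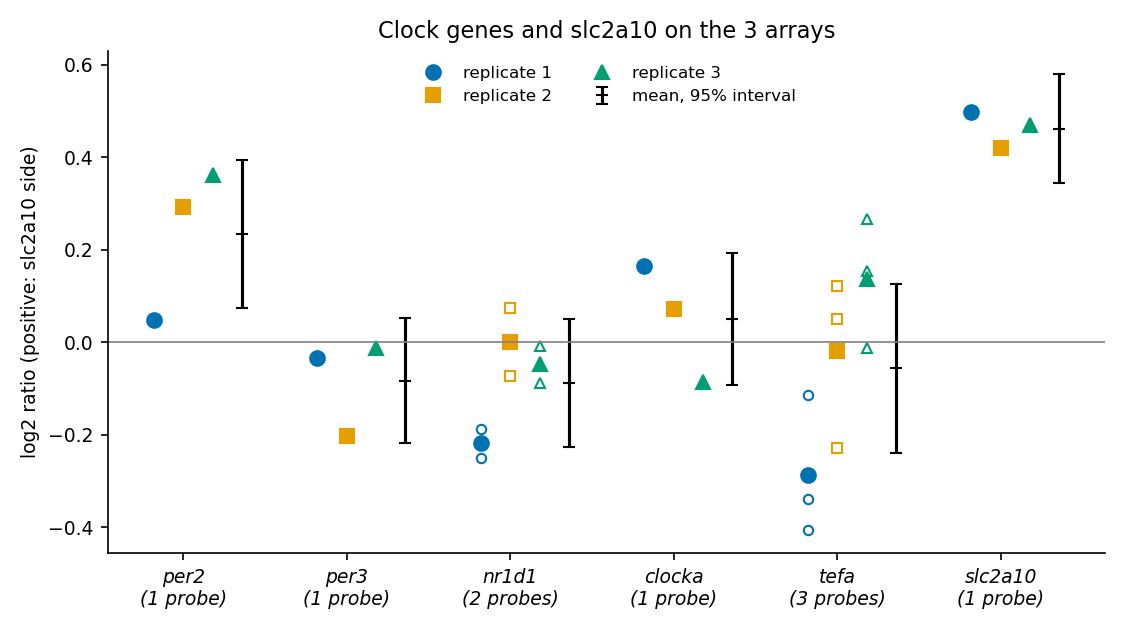
Log2 ratios of the 5 clock genes and slc2a10 on the arrays of replicates 1, 2 and 3, with positive values on the slc2a10 side. Filled symbols are gene values, open symbols the single probes of genes with more than 1 probe, and bars the mean with limma's 95% interval. The interval excludes 0 for per2 and slc2a10, while those of per3, nr1d1, clocka and tefa include it.

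Per2 and per3 encode period proteins of the repressing arm of the loop. Per2 had 0.05, 0.29 and 0.36 on replicates 1, 2 and 3 (1 probe). All 3 arrays lay on the slc2a10 side, with replicate 1 near 0 and the other two well above it. The mean was 0.23 ± 0.16 (SD, n = 3), a 1.18-fold difference with a 95% interval from 0.07 to 0.39 in log2 (limma adjusted p = 0.0498). Without replicate 1 the mean was 0.33 (limma adjusted p = 0.0047). The call was lost without replicate 2 (0.20, limma adjusted p = 0.24) and without replicate 3 (0.17, limma adjusted p = 0.19). It was also lost by an ordinary t statistic (adjusted p = 0.36), with a dye term (limma adjusted p = 0.066) and when the same values were adjusted over all probes (limma adjusted p = 0.071).

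Per3 had -0.03, -0.20 and -0.01 on replicates 1, 2 and 3 (1 probe). The arrays shared the opposite side, and replicate 2, the array with the dyes swapped, lay furthest from 0. The mean was -0.08 ± 0.10 (SD, n = 3) with a 95% interval from -0.22 to 0.05 (limma adjusted p = 0.39). With estimated array weights, which gave replicate 2 a weight of 2.81 against 0.51 for replicate 1 and 0.70 for replicate 3, the mean was -0.15 and passed (limma adjusted p = 0.043). With these weights 5211 of 15548 named genes passed, against 2996 without them.

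Within each array per2 lay above per3, by 0.08, 0.50 and 0.37 on replicates 1, 2 and 3. An exact sign-flip test over 3 arrays cannot go below p = 0.25, which is the value it gave for this difference (two-sided, mean 0.32 ± 0.21, SD). Over all 10 pairs of the 5 genes the lowest p adjusted by Benjamini-Hochberg was 0.83. Per2 also lay above nr1d1 on each array (0.27, 0.29 and 0.41, exact p = 0.25) and above tefa (0.33, 0.31 and 0.22, exact p = 0.25), while its difference from clocka changed sign between arrays (-0.12, 0.22 and 0.45). In the remaining 6 pairs the difference changed sign between arrays.

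Clocka encodes a CLOCK protein, the activating partner of BMAL. It had 0.17, 0.07 and -0.09 on replicates 1, 2 and 3 (1 probe). Replicates 1 and 2 lay on the slc2a10 side and replicate 3 on the other. The mean was 0.05 ± 0.13 (SD, n = 3), with a 95% interval from -0.09 to 0.19 (limma adjusted p = 0.66), and without replicate 1 it was -0.008.

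Nr1d1 encodes REV-ERB alpha, the repressor of the bmal genes. Averaged over its 2 probes it had -0.22, -0.0005 and -0.05 on replicates 1, 2 and 3. Replicate 1 alone was clearly away from 0. The mean was -0.09 ± 0.11 (SD, n = 3), with a 95% interval from -0.23 to 0.05 (limma adjusted p = 0.37). The 2 probes gave nearly the same mean, -0.09 each, and were 0.06, 0.15 and 0.08 apart on replicates 1, 2 and 3. On replicate 2 they lay on different sides of 0 (-0.07 and 0.07).

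Tefa encodes a PAR bZip factor that binds the D-box. Averaged over its 3 probes it had -0.29, -0.02 and 0.14 on replicates 1, 2 and 3, so that the arrays fell on both sides of 0. The mean was -0.06 ± 0.21 (SD, n = 3), with a 95% interval from -0.24 to 0.13 (limma adjusted p = 0.70). Without replicate 1 it lay on the slc2a10 side (0.06), and without replicate 3 on the opposite side (-0.15). The spread over arrays was larger than in 94.1% of named genes, where the median SD was 0.09.

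The 3 tefa probes differed in mean but not in their order over arrays. The first, A_15_P108054, had -0.34, 0.05 and 0.27 on replicates 1, 2 and 3. The second, A_15_P166596, had -0.41, -0.23 and -0.01, a mean of -0.22 (limma adjusted p = 0.12). The third, A_15_P204936, had -0.11, 0.12 and 0.15. Each probe was lowest on replicate 1 and highest on replicate 3. The probes were 0.29, 0.35 and 0.28 apart on the 3 arrays, and the second lay lowest on every array. Its mean passed without replicate 3 (-0.32, limma adjusted p = 0.010).

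**Figure D2:**
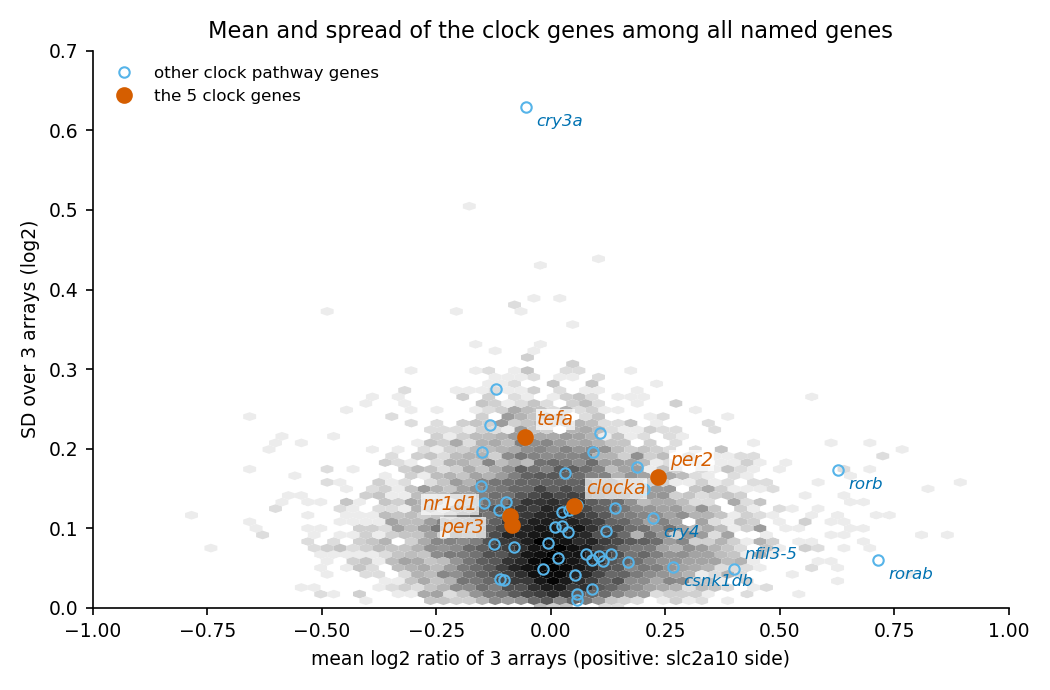
Mean log2 ratio of the 3 arrays (x, positive on the slc2a10 side) against the SD over the arrays (y, log2) for named genes, drawn as grey bins that darken with the number of genes on a log scale, with 69 genes outside the axes. Filled points are the 5 clock genes and open points the other measured genes of the clock pathway. Tefa and per2 stand high in spread, rorab and rorb far to the right, and cry3a at the top with an SD of 0.63. Other pathway genes also lie above tefa in spread, among them fbxl3b (SD 0.28), bhlhe40 (0.23) and nr1d2a (0.22).

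Of the 5 clock genes 3 had the same sign on all arrays (per2, per3 and nr1d1), against 50.1% of named genes. Of the 8 probes 4 did, against 42.9% of all probes. In spread, per2 exceeded 85.8% of named genes, clocka 72.8%, nr1d1 66.2% and per3 60.2%.

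The wider clock pathway was described with 5 lists of genes, which together held 57 genes, 49 of them measured. The 6 that were called all lay on the slc2a10 side, while 43 did not pass. That is 12.2%, against 19.3% of all named genes, 11.1% on the slc2a10 side and 8.16% on the other. The median of the 49 means was 0.04, against 0.007 over all named genes. The number called was 3 without replicate 2, 11 without replicate 1 (9 on the slc2a10 side and 2 on the other) and 13 with array weights (11 and 2). Of the 15548 named genes, 1556, 3211 and 5211 were called in the same settings, so the count over all genes moved in the same order. The number of pathway genes called was 0 by an ordinary t statistic (10 at an unadjusted p under 0.05). It was also 0 by limma with the sign of replicate 2 as deposited (0 at an unadjusted p under 0.05). That setting averages ratios that run opposite ways, so its count does not bear on the pathway. Over all named genes these settings called 2 and 0, and 3262 and 28 of 15548 had an unadjusted p under 0.05.

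The list of the repressing arm held period, cryptochrome and related genes. Of its 13 measured genes 2 passed on the slc2a10 side, per2 and cry4, and 0 on the other. Over all named genes 11.1% and 8.16% did so. Cry4 encodes a cryptochrome that, unlike some others of zebrafish, is not known to repress CLOCK and BMAL. It had 0.14, 0.18 and 0.35 on replicates 1, 2 and 3, a mean of 0.22 ± 0.11 (limma adjusted p = 0.034). Cry4 lost its call without replicate 2 (limma adjusted p = 0.12), without replicate 3 (limma adjusted p = 0.16) and with a dye term (limma adjusted p = 0.096). Of its 3 probes 1 was called (limma adjusted p = 0.048), while the others did not pass (limma adjusted p = 0.060 and 0.31). The probe with 0.31 had a log ratio of -0.04 on replicate 2. The paralogs of per2 did not pass: per1a had a mean of 0.03 ± 0.12 and per1b 0.09 ± 0.20. Ciarta, encoding a repressor of CLOCK and BMAL, had 0.19 ± 0.18 (limma adjusted p = 0.11).

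Cry3a, a cryptochrome gene singled out after its values were seen, had 0.57, -0.04 and -0.69 on replicates 1, 2 and 3. Its arrays spanned 1.26 in log2, more than in 99.9% of named genes, and its mean of -0.05 did not pass (limma adjusted p = 0.89). Both of its probes showed this spread, with 0.28, -0.05 and -0.69 for one and 0.85, -0.03 and -0.69 for the other. Its paralog cry3b had -0.06, -0.12 and -0.12.

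In the activating arm 0 of 6 measured genes were called by limma, against 19.3% of all named genes. An unadjusted limma p under 0.05 was reached by 0 of 6, against 31.4% of all named genes. Their means ran from -0.15 for npas2, encoding a relative of CLOCK, to 0.11 for bmal1a. Clockb, the paralog of clocka, had -0.26, -0.04 and -0.04 on replicates 1, 2 and 3. The pair thus differed most on replicate 1, where clocka had 0.17.

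The largest differences of the pathway were in ROR receptor genes. Of 8 measured REV-ERB and ROR genes 2 were called, both on the slc2a10 side, where 11.1% of all named genes were called. Rorab, encoding a ROR alpha receptor, had 0.74, 0.76 and 0.65 on replicates 1, 2 and 3, which averaged 0.72 ± 0.06, or 1.64-fold (limma adjusted p = 0.00014). Rorb, encoding ROR beta, a receptor known from retina and brain, had 0.71, 0.75 and 0.43, which averaged 0.63 ± 0.17, or 1.54-fold (limma adjusted p = 0.00085). Both kept their call without any 1 replicate, and each was measured by 1 probe. The relatives of nr1d1 did not pass: nr1d2a had 0.11 ± 0.22, nr1d4a -0.005 ± 0.08 and nr1d4b -0.15 ± 0.20.

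Many retinal and pineal markers lay on the same side as these receptor genes. Among 31 measured photoreceptor and pineal genes, 14 passed on the slc2a10 side and 0 on the other, against 11.1% and 8.16% of all named genes. The remaining 17 did not pass, and 10 of the 31 had means below 0. The means ran from -0.08 to 2.16, with a median of 0.12. The largest were gnb3a (2.16 ± 0.19), encoding a G protein beta subunit, crx (1.99 ± 0.59), encoding a photoreceptor transcription factor, and rpe65a (1.68 ± 0.16), encoding a retinoid isomerase of the pigment epithelium. Sagb, an arrestin gene, had 1.20 ± 0.06, neurod1, encoding a proneural factor, 1.14 ± 0.04, and nr2e3, encoding a photoreceptor nuclear receptor, 1.06 ± 0.16. The part of these tissues in the values of rorab and rorb was not tested, and in whole embryos a difference in the number of cells of a type and one in RNA per cell cannot be told apart.

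**Figure D3:**
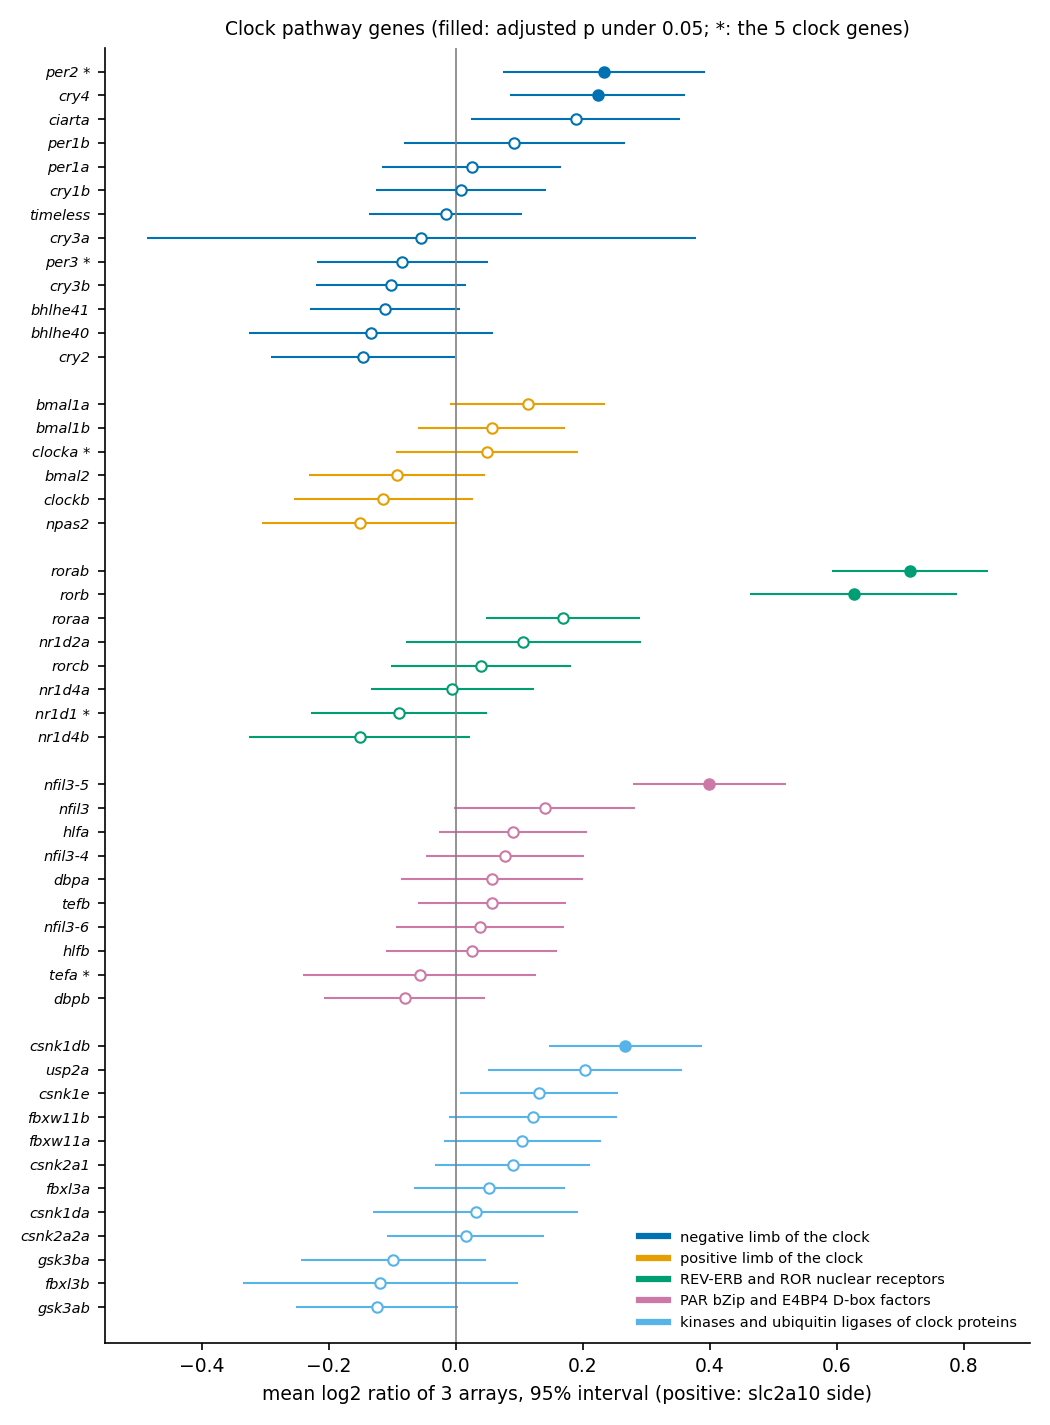
Mean log2 ratio of the 3 arrays with limma's 95% interval (x, positive on the slc2a10 side) for the measured genes of 5 clock lists (y, coloured by list). Filled points passed an adjusted p under 0.05, open points did not, and stars mark the 5 clock genes. The 6 filled points are per2, cry4, rorab, rorb, nfil3-5 and csnk1db, all to the right of 0.

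Among factors that bind the D-box 1 of 10 measured genes was called, against 19.3% of all named genes. This was nfil3-5, a member of the E4BP4 family, whose mammalian member represses the sites that PAR bZip factors activate. It had 0.35, 0.40 and 0.45 on replicates 1, 2 and 3, a mean of 0.40 ± 0.05 (limma adjusted p = 0.0016), and both of its probes were called (0.43 and 0.37). Tefb, the paralog of tefa, had 0.07, 0.04 and 0.06. Its SD was 0.02 over the arrays, against 0.21 for tefa. The other PAR bZip genes dbpa, dbpb, hlfa and hlfb had means between -0.08 and 0.09 and did not pass.

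Of 12 measured genes of kinases and ubiquitin pathway enzymes that act on clock proteins, 1 was called, against 19.3% of all named genes. Csnk1db, encoding a casein kinase 1 delta, an enzyme that phosphorylates period proteins, had 0.21, 0.29 and 0.30 on replicates 1, 2 and 3 (1 probe). Its mean was 0.27 ± 0.05 (limma adjusted p = 0.0095), and the call was lost without replicate 2 (limma adjusted p = 0.084). Its paralog csnk1da had 0.23, -0.08 and -0.05 and did not pass.

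Of 7 measured clock output genes 1 was called, against 19.3% of all named genes. This was wee1 (1 probe), encoding a kinase that delays entry into mitosis. It had -0.38, -0.44 and -0.14 on replicates 1, 2 and 3, a mean of -0.32 ± 0.16 (limma adjusted p = 0.013), and lost its call without replicate 2 (limma adjusted p = 0.10). Markers of dividing cells lay on the same side: 17 of 19 passed there, against 8.16% of all named genes. On the slc2a10 side 0 passed, and the means ran from -0.68 to 0.02. The 6 largest were tyms (-0.68 ± 0.13), mcm5 (-0.64 ± 0.10), mcm4 (-0.63 ± 0.03), cdc6 (-0.62 ± 0.10), mcm7 (-0.59 ± 0.14) and mcm2 (-0.57 ± 0.18). Tyms encodes thymidylate synthase, which makes a DNA precursor, and the others act in the licensing and unwinding of replication origins. The part of dividing cells in the value of wee1 was not tested. The melatonin synthesis gene of the pineal, aanat2, had 0.01, 0.14 and -0.009 and did not pass.

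In light-induced genes the ratios of the knockdown replicates differed from each other mostly in one direction. Replicates 1 and 3 had the same dye orientation and the same control pool. The difference of their ratios thus compares 2 knockdown replicates together with the labelling and hybridisation of their arrays. These cannot be told apart with 1 array per replicate. The ratio was larger on replicate 3 for 7 of 8 measured light-induced genes, against 45.3% of named genes. The median of replicate 3 minus replicate 1 was 0.31 for the 8 genes and -0.02 over all named genes. Without per2 and tefa, which are among the 8, it was 0.22. Some other lists also departed from the 45.3%, in both directions. The ratio was larger on replicate 3 for 7 of 31 photoreceptor and pineal genes (median difference -0.09) and 2 of 8 REV-ERB and ROR genes (-0.15). It was larger there for 8 of 12 genes of kinases and ubiquitin enzymes (0.07) and 5 of 7 clock outputs (0.02). Lists nearer to the 45.3% were the repressing arm (7 of 13), the activating arm (3 of 6), the D-box factors (6 of 10) and the markers of dividing cells (8 of 19). Differences between these arrays were thus also seen in other lists, with medians smaller in size than 0.31. With 1 array a side there is no test of these differences, and the light-induced pattern was chosen after the values were seen.

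Of the 5 clock genes, tefa differed most between these arrays, by 0.42, more than 95.7% of named genes did in size. Per2 differed by 0.31 (89.4%), nr1d1 by 0.17 (65.5%) and per3 by 0.02 (9.85%). Clocka ran the other way, at -0.25 (81.7%). Each tefa probe was higher on replicate 3, by 0.61, 0.40 and 0.27, and so was each nr1d1 probe, by 0.18 and 0.16.

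Of the 6 light-induced genes besides per2 and tefa, 5 were higher on replicate 3, by amounts that varied. Xpc and hsf2 differed by 0.11 and 0.15, more than 44.8% and 58.6% of named genes did in size. Neil1 ran the other way, at -0.14. Ddb2, encoding a sensor of ultraviolet damage, had -0.39, 0.01 and 0.22 on replicates 1, 2 and 3 (1 probe). Cry5, encoding the photolyase for (6-4) photoproducts, had -0.06, 0.05 and 0.23. Cry-dash, encoding a cryptochrome of the DASH type, had 0.13, 0.34 and 0.49. Replicate 1 was the lowest array for 7 of the 8 genes, against 32.1% of named genes.

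Among these 8 genes, per2, cry-dash and neil1 were called on the mean of the 3 arrays, against 19.3% of all named genes. Cry-dash had a mean of 0.32 ± 0.18 (limma adjusted p = 0.018) on the slc2a10 side. Neil1, encoding a DNA glycosylase, had -0.21, -0.24 and -0.35, a mean of -0.26 ± 0.08 (limma adjusted p = 0.012) on the opposite side, and was the exception in the comparison of replicates. Cry-dash lost its call without replicate 2 (limma adjusted p = 0.070) and without replicate 3 (limma adjusted p = 0.066). Neil1 did so as well (limma adjusted p = 0.065 and 0.053). Cry-dash and neil1 were measured by 1 probe each.

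**Figure D4:**
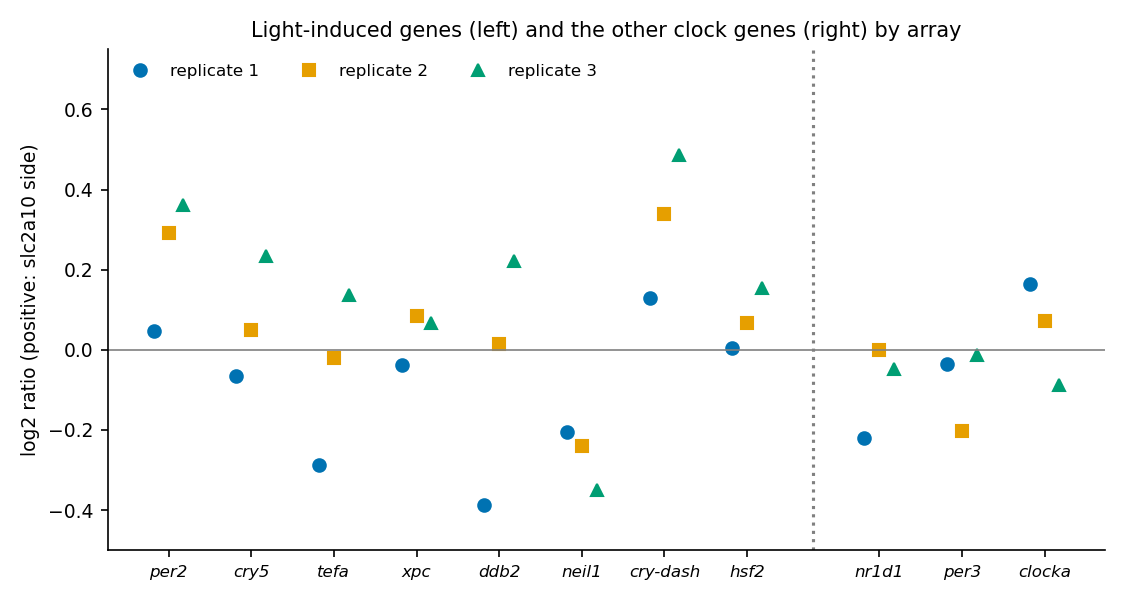
Log2 ratios (y, positive on the slc2a10 side) of the 8 measured light-induced genes, left of the dotted line, and of nr1d1, per3 and clocka, right of it, on replicates 1, 2 and 3. Replicate 3 lies above replicate 1 for 7 of the 8 light-induced genes, with neil1 the exception.

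The named genes whose ratios on the 3 arrays lay closest to those of each clock gene were found by Euclidean distance in log2, as a description over 3 arrays. For per2 they were neu3.2, bcl2l13 and wu:fj42b12, at 0.03, 0.05 and 0.05, and 27 genes lay within 0.1. For per3 the closest were anapc2, mettl26 and trim35-7, with 336 genes within 0.1. For nr1d1 they were gpr184, rarab and plek, with 301 within 0.1. For clocka they were mtnr1bb, ift52 and lrrtm2, with 482 within 0.1, and for tefa tapbp.2, nitr5 and tmem169a, with 71. Per2 and tefa thus had fewer genes near them than the clock genes whose values lay closer to 0.

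The differences were tested against 1 control pool, whose own spread is not in the errors given, and a difference of that pool would appear on every array. Nothing here says that the 4 clock genes that did not pass were equal in both groups: the bound furthest from 0 among their 95% intervals was -0.24, for tefa.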

How the data were processed

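Two-colour Agilent arrays compared 3 slc2a10 MO replicates with 1 control MO pool. The authors deposited 1 log ratio per probe and array, read here as log2. As log10 the largest size, 4.85, would slightly exceed a 16-bit scanner's range. That bit depth was assumed, so log10 is not excluded. A natural log is also possible, and either base would understate the log2 sizes and fold differences given. Per the submitters' processing notes Partek was used, in no stated role. For background correction, normalization and ratio direction, the method is not given in the sources used. Deposited medians were -0.0016, -0.0076 and -0.0045. Scanner files were not used here, so detection and saturation are unknown, and the number of arrays limits precision.

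After 45 control spots were left out, 23717 of 43603 probes had 1 gene symbol from GEO's platform annotation. Probes with no symbol or several were left unnamed, 19886 in all. Symbols were updated through Entrez IDs (23534 probes) or accessions (42) with RefSeq's GRCz12tu table. The sign of replicate 2 was turned because it correlated below -0.3 with both other arrays. Probes were averaged per gene, and the mean of the arrays was tested against 0 with limma 3.58.1 in R 4.3.3 (lmFit, eBayes), with Benjamini-Hochberg adjustment over 15548 genes or all probes. On simulated data of 15548 genes, 100% of 100 genes changed by 0.5 log2 and 87% of 100 changed by 0.3 were recovered, with 25 unchanged genes called. The simulated noise was independent and normal, with limma's moderated variances and no error of the control pool. It therefore does not give the recovery on the real arrays.

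The members and lists were chosen with earlier results of these data known. Named were the clock genes, slc2a10, up to 6 called genes per list with the largest means, and the 3 nearest genes to each clock gene. Uncalled paralogs and pathway genes are further named for context, chosen after their values were seen. Alternatives were another sign of replicate 2, other variance models, array weights, a dye term, scaling, probe summaries and leaving out replicates.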

Additional observations from a re-analysis of the deposited data

How the results depend on the processing

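The mean of per2 was 0.039 with the sign of replicate 2 as deposited (limma adjusted p = 1.0). Because the dyes of replicate 2 were swapped, that setting averages ratios that run opposite ways. A call lost there therefore does not bear on the gene. The mean of per2 was 0.25 with a dye term, and 0.23 with an ordinary t statistic (adjusted p = 0.36) or a probe-level fit. Per2 lost its call with each of these. It kept its call with robust eBayes, array weights, equal scaling and probe medians. The mean of per3 passed with array weights (-0.15, limma adjusted p = 0.043). At the probe level, per2 (0.27) and the second tefa probe (-0.21) passed with array weights. Leaving out 1 replicate in turn gave 0.17 to 0.33 for per2, -0.12 to -0.02 for per3, -0.13 to -0.02 for nr1d1, -0.008 to 0.12 for clocka and -0.15 to 0.06 for tefa. It gave 0.17 to 0.33 for the per2 probe and -0.32 to -0.12 for the second tefa probe.

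Main counts were 2996 named genes, 6 clock pathway genes, 1 clock gene, 5090 probes and 0 clock gene probes called. With the sign of replicate 2 as deposited they were 0, 0, 0, 0 and 0 (28 genes and 150 probes at an unadjusted p under 0.05). With an ordinary t statistic they were 2, 0, 0, 3 and 0, and with array weights 5211, 13, 2, 7827 and 2. A dye term and a probe-level fit left 0 clock genes called. Without 1 replicate they ranged from 1556 to 3211 genes, 3 to 11 pathway genes, 0 to 1 clock genes, 2897 to 6593 probes and 0 to 1 clock gene probes. Among the 20 further named genes with a call, leaving out replicate 2 ended it for 5 and leaving out replicate 3 for 3; a dye term ended it for 1 (cry4), and an ordinary t statistic or the deposited sign of replicate 2 for all 20. Over all named genes the ordinary t statistic called 2 and the deposited sign 0, so those losses are not particular to the 20. The cause of the other losses was not tested. No paired analysis was possible because the design has 1 group of replicates against 1 pool.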
